A study of Mus musculus with 10 samples.

Results

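The molecular chaperones of the cytosol and the mitochondria, 38 genes in all, were followed in mouse lenses that were wild type or carried a conditional null of the transcription factor gene Klf4. The members were a fixed list of gene symbols in 7 classes: 2 small heat shock genes, 8 of the HSP70 and HSP110 families, 2 of the HSP90 family, 6 HSP40 (J protein) genes, 8 subunits of the cytosolic chaperonin, 5 mitochondrial chaperones and 7 regulators and co-chaperones. The brightest probe set that carried a single gene symbol stood for each gene. Such a probe set was named for 36 of the 38 members, and all 36 passed the filter on low signals. The whole table held 18193 named genes, of which 13440 were tested. Hsf1, the main heat shock factor, and Hsp90ab1, a cytosolic HSP90, were not analysed here.

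RNA came from whole lenses of embryos at day 16.5 of gestation (E16.5) and of young adults at postnatal day 56 (PN56). At E16.5 there were 3 samples of wild type (WT) and 3 of the Klf4-conditional null (Klf4CN), each a separate pool of lenses from 5 embryos. At PN56 there were 2 samples per genotype, each a pool from 3 mice. Each of the 10 samples was hybridised to its own Affymetrix mouse 430 2 array, which reads each gene with one or more sets of short probes near the 3′ end of the transcript. The labels name no strain, no Cre line and no part of Klf4 that is removed. The comparisons ask which chaperone transcripts differ between Klf4CN and WT at each age, and which differ between the ages.

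Chaperones bind unfolded or partly folded proteins and keep them from aggregating. Small heat shock proteins hold unfolded clients without using ATP. HSP70 proteins bind and release clients in an ATP cycle that J proteins start and that HSP110 proteins, acting as nucleotide exchange factors, reset. HSP90 matures a narrower set of clients that co-chaperones hand over to it, the chaperonin TRiC/CCT folds actin, tubulin and other proteins inside stacked rings of related subunits, and mitochondria have an HSP60 chamber (Hspd1) with its HSP10 lid (Hspe1). Heat shock factors drive many of these genes through heat shock elements, which are runs of GAA units in alternating orientation. The lens depends on chaperones because its fibre cells lose their nuclei and keep their proteins for life, and its alpha crystallins are themselves small heat shock proteins.

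Promoter sequence, from 250 bases before to 50 bases after the start site, was read for 31 of the 38 members from RefSeq (build GRCm38.p6) and searched for heat shock elements, because heat shock factors act through them. Every match is a description of letters in this window, not a shown site of binding. A run of 3 units, GAANNTTCNNGAA or its reverse complement TTCNNGAANNTTC, stood in the promoters of 4 members (12.9% of the 31), namely Hspd1, Hspe1, Hsph1 and Dnajb6, against 0.662% of 27025 genes. A run of 2 units, GAANNTTC or TTCNNGAA on either strand, which every run of 3 also contains, stood in 15 members (48.4%), against 17.0% of genes. The sequences shown are those of genes on which the expression results turn, printed 5′ to 3′ on the gene's own strand with the repeat units in capitals.
Hspe1: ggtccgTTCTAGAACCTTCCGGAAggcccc
Hsph1: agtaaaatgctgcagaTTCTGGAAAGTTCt
Dnajb6: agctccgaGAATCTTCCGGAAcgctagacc
Dnajb4: ttcgttcgctgTTCTAGAAagtacagagac
Hspb1: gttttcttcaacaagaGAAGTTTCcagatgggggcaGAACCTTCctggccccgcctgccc
Hspa1a: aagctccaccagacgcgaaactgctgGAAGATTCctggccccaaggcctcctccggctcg
Hspa1b: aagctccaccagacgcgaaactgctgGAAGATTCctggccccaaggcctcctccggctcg
These stretches lie at chr1:55088053-55088082 on the plus strand (Hspe1), chr5:149636287-149636316 on the minus strand (Hsph1), chr5:29735844-29735873 on the plus strand (Dnajb6), chr3:152193841-152193870 on the minus strand (Dnajb4), chr5:135887786-135887845 on the plus strand (Hspb1), and chr17:34972227-34972286 and chr17:34959309-34959368, both on the minus strand (Hspa1a and Hspa1b). Hspe1 and Hspd1 are divergent neighbours whose nearest listed start sites are 216 bases apart, so that the stretch printed for Hspe1 is also the one found for Hspd1 on the other strand. The stretches printed for Hspa1a and Hspa1b are the same, since these 2 genes differed at 4 of the 300 bases of their windows. As near-identical copies they may share probe set signal, so it is uncertain which copy a value reads.

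All arrays had been scaled to the same trimmed mean of 500, and the median signal of an embryonic array was 63.0 to 76.9, that of an adult array 91.0 to 108.6. Klf4 itself went against its label. Its signal was 739 ± 295 (SD, n = 3) in WT and 1079 ± 278 (SD, n = 3) in Klf4CN at E16.5, and 185.0 ± 40.3 (SD, n = 2) in WT and 717 ± 20.9 (SD, n = 2) in Klf4CN at PN56, where the log2 difference was 1.88 (limma adjusted p = 0.00411). Where the probe set lies relative to the deleted part of the gene was not analysed here, so each direction below is that of the lenses labelled Klf4CN against those labelled WT. Lens fibre markers were bright on every array, but their summed signal at PN56 was 593509 to 663250 in WT and 445538 to 452218 in Klf4CN, with 6 of 8 lower in Klf4CN, and 4 of 6 lens epithelium markers were lower too. Of 6 macrophage markers, Cd68 and Tyrobp were higher in Klf4CN at PN56, while the macrophage sum was 1433 to 1530 in WT and 1526 to 2327 in Klf4CN. No pigment cell, retinal, photoreceptor, erythroid or endothelial marker differed between the genotypes by the test at either age. The 18S rRNA control (5′ part) read 1155 to 2413 in WT and 20900 to 22780 in Klf4CN at E16.5, and 527.5 to 2870 and 5700 to 11010 at PN56, without overlap at either age. The ratio of 3′ to 5′ signal of Actb, a control for RNA quality, was 1.79 to 1.88 in WT and 1.46 to 1.60 in Klf4CN at PN56, while that of Gapdh overlapped. The bright control cre read 36400 to 42060 in WT and 32760 to 33440 in Klf4CN at E16.5. At PN56 it read 72630 to 83850 and 51260 to 53240, so it was lower in Klf4CN without overlap at both ages. The part of these shifts in the chaperone values, and that of cre in the marker values, was not tested. In whole lenses fewer cells of a type and less RNA per cell cannot be told apart. The ages differed in their preparation too, since the poly-A control dap read 3655 and 3576 (WT and Klf4CN means) at E16.5 and 12.9 and 6.55 at PN56, so age and preparation cannot be told apart.

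At E16.5 no chaperone gene passed the test between Klf4CN and WT. Of the 36 members tested, 0 were called at a limma adjusted p under 0.05, where 0.00744% of all 13440 genes (1 gene) were, and 4 had an unadjusted p under 0.05, 11.1% of the members beside 4.51% of all genes. The members' median log2 difference was 0.05, beside 0.00 for all genes. Klf4CN and WT signals did not overlap for 5 members, 4 higher and 1 lower, beside 11.8% of all genes (5.16% higher, 6.64% lower). The chaperonin subunits lay between -0.12 and 0.09, with 95% intervals that together ran from -0.29 to 0.28, and the 5 mitochondrial members lay between -0.11 and -0.03.

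The member nearest to a call in the embryo was Hspb1, the small heat shock protein also called HSP25. Its signals were 4445, 4494 and 4049 in WT and 7812, 5428 and 8002 in Klf4CN. The Klf4CN arrays were all above the WT arrays, with the second Klf4CN array well below the other two. The log2 difference was 0.69 ± 0.13 (SE), with an adjusted p of 0.247; without that second Klf4CN array it was 0.87 and passed the test (adjusted p = 0.0129). Hspb8, a small heat shock protein that works with Bag3, read 228, 175 and 195 in WT and 250, 292 and 271 in Klf4CN, also without overlap, and its difference of 0.42 had an adjusted p of 0.9998.

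**Figure D1:**
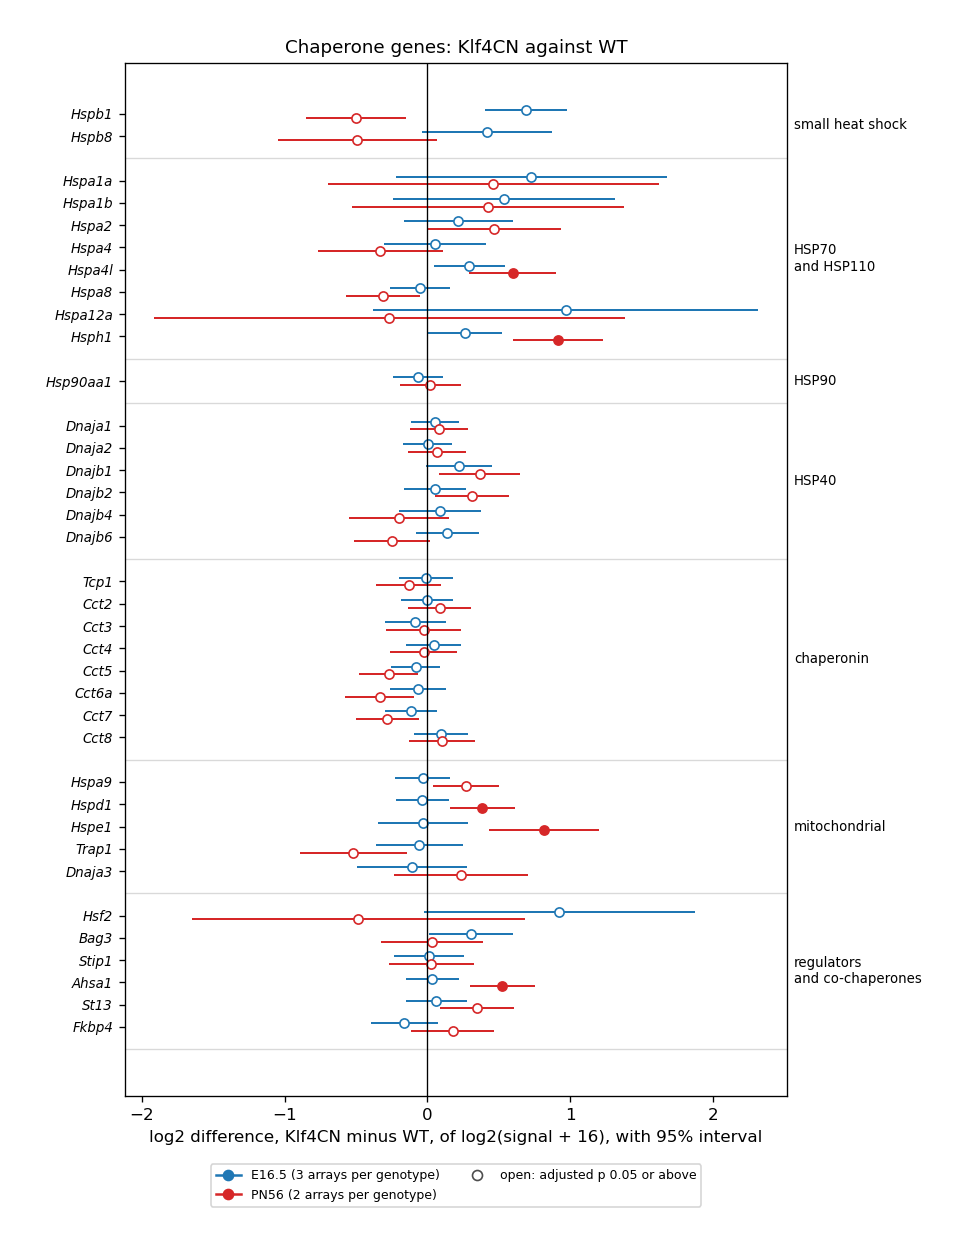
The log2 difference of Klf4CN from WT for the 36 chaperone genes tested, grouped by class, at E16.5 (blue, 3 arrays per genotype) and PN56 (red, 2 per genotype), with 95% intervals and filled points where the limma adjusted p was under 0.05. Filled points appear at PN56 only, for Hspa4l, Hsph1, Hspd1, Hspe1 and Ahsa1, all on the higher side.

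In the adult lens 5 chaperone genes were higher in Klf4CN and none was lower, by the probe set that stood for each gene. Other probe sets of Hspa4, Dnaja1 and Dnaja2 were called lower, and those of St13 higher, as given below. The risers were Hsph1 and Hspa4l of the HSP110 family, the mitochondrial pair Hspd1 and Hspe1, and Ahsa1, the activator of the HSP90 ATPase, with log2 rises from 0.39 to 0.92. They were 13.9% of the 36 members, beside 13.0% of all genes called in either direction, 6.04% higher and 6.98% lower. The members' share of calls is thus near the background, while all of these calls, 1 probe set per gene, were on the higher side. At an unadjusted p under 0.05 there were 16 members, beside 28.6% of all genes, and signals did not overlap for 26 members (16 higher, 10 lower), beside 50.8% of all genes (21.8% higher, 29.0% lower). The members' median was 0.05, beside -0.06 for all genes. Centring each array on its median moved the median of all genes by 0.13 and gave 6 members higher and 0 lower; quantile normalization gave 4 higher and 2 lower, the latter Cct6a and Cct7. Of all calls, 46.4% were higher as deposited and 71.9% after centring.

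Hsph1, or HSP105, a nucleotide exchange factor for HSP70, rose most among the members in the adult. Its signals at PN56 were 1514 and 1482.5 in WT and 2897 and 2784 in Klf4CN. The Klf4CN arrays stood far above the WT arrays and also above every E16.5 array, where it read 1326.5, 1552 and 1725 in WT and 1639, 1952 and 1935 in Klf4CN. The PN56 log2 difference was 0.92 ± 0.14 (SE), 1.89-fold (adjusted p = 0.00176), and at E16.5 it was 0.26 with no call. The call for Hsph1 held under all 21 alternatives tried, which gave 0.89 to 1.04.

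Hspa4l, an HSP110 protein also called APG-1, read 1175.5 and 1301 in WT and 1850.5 and 1906 in Klf4CN at PN56. Its E16.5 signals were 985, 1139 and 1049 in WT and 1169, 1420 and 1308 in Klf4CN. The genotypes did not overlap at either age. The adult difference passed the test, at 0.60 ± 0.14 (SE), 1.51-fold (adjusted p = 0.0138), the embryonic one did not, and the difference between the ages was 0.31 (adjusted p = 0.358). Without the first PN56 WT array its adjusted p was 0.0767, and without the second PN56 Klf4CN array it was 0.0609.

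Other probe sets for the HSP110 genes were tested each by itself, with p-values adjusted over all probe sets. All 5 probe sets of Hspa4l that passed the filter were higher in Klf4CN at PN56, and 3 of them were called, at 0.60, 0.82 and 0.84. The second probe set of Hsph1 gave 1.01 (adjusted p = 0.0680). Hspa4, the third HSP110 gene, was singled out after its values were seen because its probe sets disagreed. The probe set that stood for it read 3049 and 3256 in WT and 3349 and 1871 in Klf4CN at PN56, a difference of -0.33 without a call (adjusted p = 0.302), and without the first Klf4CN array this was -0.75 (adjusted p = 0.00346). The other 2 probe sets that passed the filter were lower in Klf4CN, at -0.82 (adjusted p = 0.0441) and -1.59 (adjusted p = 0.00210). On the last of these the signals were 795 and 665 in WT and 305 and 173 in Klf4CN.

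**Figure D2:**
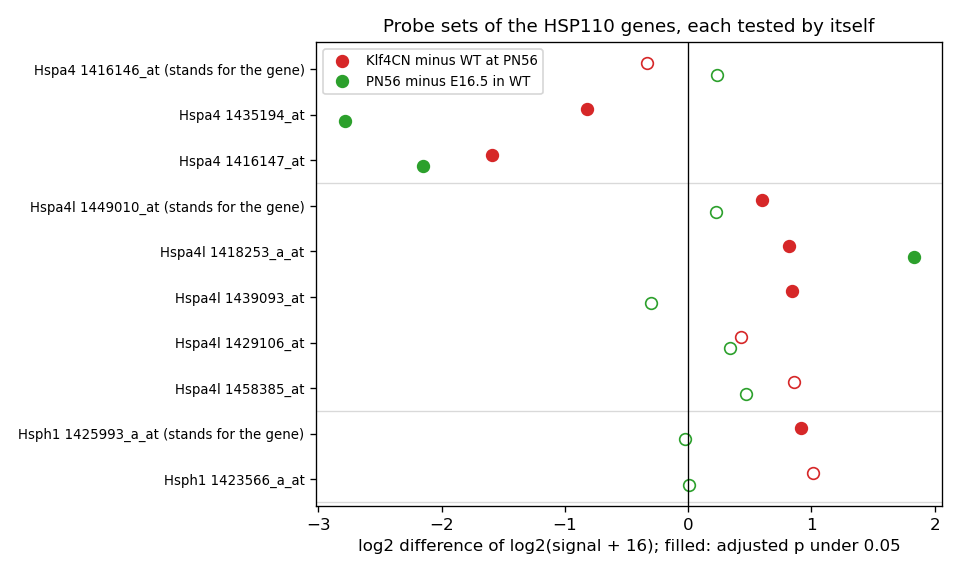
Log2 differences of every probe set of Hspa4, Hspa4l and Hsph1 that passed the filter, for Klf4CN against WT at PN56 (red) and for PN56 against E16.5 in WT (green), filled where the adjusted p was under 0.05. The 5 Hspa4l probe sets and the 2 of Hsph1 lie on the higher side for genotype, and those of Hspa4 on the lower side, with 2 of its 3 filled.

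The HSP70 genes proper did not pass the test for genotype in the adult. Hspa8, the constitutive cytosolic HSP70 or HSC70, read 82424 and 90632 in WT and 67939 and 71530 in Klf4CN, lower in Klf4CN without overlap, with a difference of -0.31 ± 0.12 (SE) and an adjusted p of 0.0981. Hspa2, an HSP70 best known from testis, read 274 and 272 in WT and 338 and 436 in Klf4CN (0.47, adjusted p = 0.167). The stress-inducible Hspa1b read 1711 and 2069 in WT and 2488 and 2566 in Klf4CN (0.42, adjusted p = 0.571), and its near-copy Hspa1a gave 0.46. Their spread was wide, with a 95% interval for Hspa1b from -0.52 to 1.37.

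The mitochondrial chamber and its lid were both higher in Klf4CN at PN56. Hspe1, the HSP10 lid, read 11105 and 16111 in WT and 20025 and 27800.5 in Klf4CN. Its groups did not overlap, but the arrays within each group stood well apart. The difference was 0.82 ± 0.17 (SE), 1.76-fold (adjusted p = 0.00988), and fell out of the call without the first PN56 WT array (0.55, adjusted p = 0.0778) or without the second PN56 Klf4CN array (0.58, adjusted p = 0.0800). A second probe set of Hspe1 gave 1.01 (adjusted p = 0.0232). At E16.5 Hspe1 read 8486, 8124 and 7573 in WT and 7965, 8301 and 7380 in Klf4CN, with overlap and a difference of -0.03.

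Hspd1, the HSP60 subunit of the chamber, read 5852 and 6024 in WT and 7719 and 7798 in Klf4CN at PN56. Arrays within a group lay close together and the groups stood apart. The difference was 0.39 ± 0.10 (SE), 1.31-fold (adjusted p = 0.0254). This call was lost when any of the 4 PN56 arrays was left out, with differences of 0.36 to 0.41. It was also lost after quantile normalization (0.31, limma adjusted p = 0.0558). The same held without the intensity trend (adjusted p = 0.1005) and with only the groups compared (adjusted p = 0.121). At E16.5 the signals were 9763, 8877 and 10583 in WT and 9473, 9727.5 and 9220.5 in Klf4CN, and the groups overlapped.

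The other mitochondrial members did not pass the test. Trap1, the mitochondrial HSP90, read 1252 and 1034 in WT and 770.4 and 809 in Klf4CN, the lowest difference of any member at -0.52 ± 0.17 (SE), with an adjusted p of 0.0621; without the second E16.5 WT array, which shares in the estimate of spread, that p was 0.0412. Hspa9, or mortalin, the mitochondrial HSP70 that pulls proteins through the import channel, read 3381 and 3542 in WT and 4125 and 4222 in Klf4CN (0.27, adjusted p = 0.110). Dnaja3, the mitochondrial J protein, gave 0.23 with overlap.

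**Figure D3:**
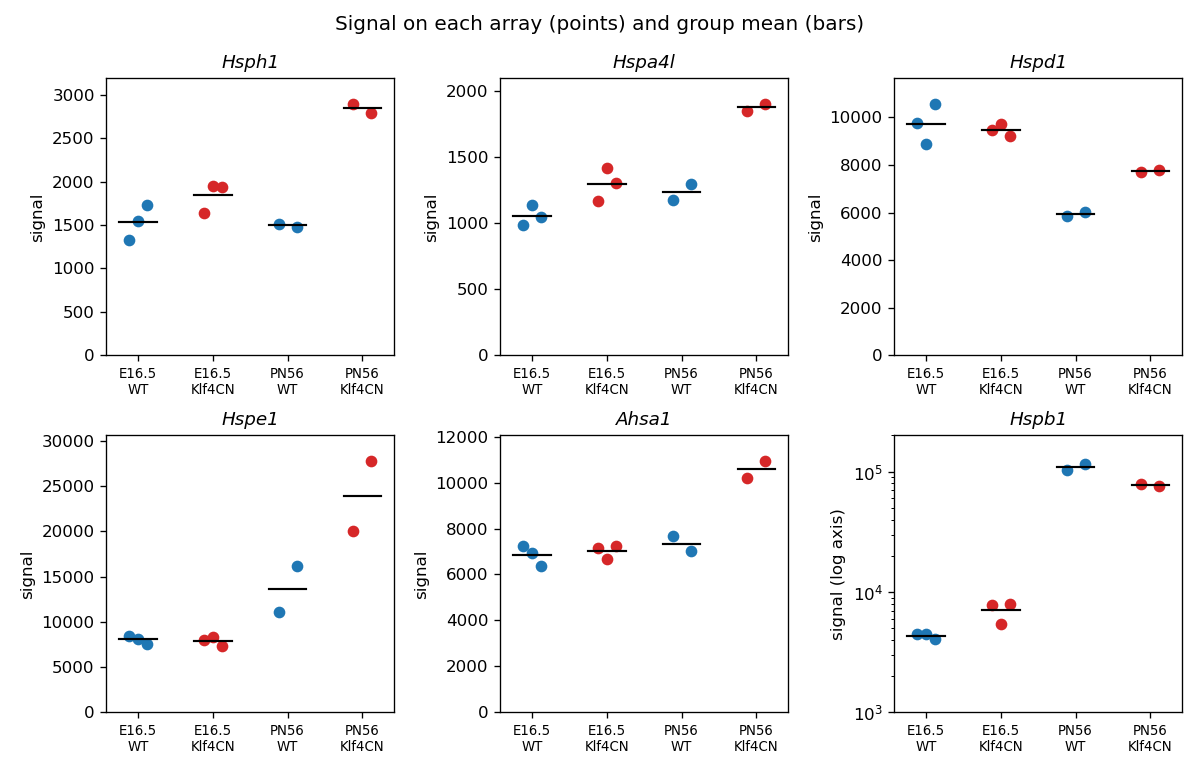
Signal on each array (points, WT blue and Klf4CN red) and group means (bars) for the 5 genes called at PN56 and for Hspb1, whose axis is logarithmic. Hsph1, Hspa4l, Hspe1 and Ahsa1 reach their highest signals in PN56 Klf4CN, Hspd1 is below its E16.5 level in both adult groups, and Hspb1 is lower in Klf4CN than in WT at PN56 but higher at E16.5.

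Among the regulators and co-chaperones Ahsa1 was the only gene called. It read 7656 and 7038 in WT and 10185 and 10955 in Klf4CN at PN56, while all 6 E16.5 arrays lay between 6374.5 and 7240.5. The adult Klf4CN arrays therefore stood above every other array. The difference was 0.52 ± 0.10 (SE), 1.44-fold (adjusted p = 0.00602), and the call was lost under 1 of 21 alternatives, the mean of its probe sets (0.39, adjusted p = 0.344), its second probe set reading only 76.0 to 203 at PN56.

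St13, or Hip, which stabilises the client-bound form of HSP70, read 11334 and 13561 in WT and 15557 and 15947 in Klf4CN (0.34, adjusted p = 0.0699). Its other 2 probe sets were called higher, at 1.0 (adjusted p = 0.000767) and 2.28 (adjusted p = 0.0483, at signals of 11.4 to 344). Fkbp4, an HSP90 co-chaperone of steroid receptors, read 1569 and 1410 in WT and 1738.5 and 1629 in Klf4CN (0.18, adjusted p = 0.408). Stip1, which joins HSP70 to HSP90, gave 0.03, Bag3 gave 0.03, and Hsf2, a heat shock factor active in development, gave -0.48 at signals of 7.4 to 44.2.

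HSP90 and the J proteins held no call between the genotypes in the adult by the probe set that stood for each gene. Hsp90aa1, the inducible cytosolic HSP90, read 28014 and 29437 in WT and 28562.5 and 29708 in Klf4CN, a difference of 0.02 with a 95% interval from -0.19 to 0.23. Dnajb1, the main stress-inducible J protein, read 22414 and 20181 in WT and 25640.5 and 29273 in Klf4CN (0.37, adjusted p = 0.0782). Dnajb2, a J protein that also binds ubiquitin, read 10067 and 8887 in WT and 11732 and 11733 in Klf4CN (0.31, adjusted p = 0.103). All 6 J proteins had groups that did not overlap, 4 higher and 2 lower, beside the 50.8% of all genes. Dnaja1, a partner of HSC70, was split by probe set, since its brightest gave 0.08 while its other 2 were called lower, at -0.49 (adjusted p = 0.0114) and -0.92 (adjusted p = 0.00107), and 1 of the 4 probe sets of Dnaja2 was also lower, at -0.61 (adjusted p = 0.0275).

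The cytosolic chaperonin did not move as a block. Its 8 subunit genes gave 0 calls at PN56 by limma and 3 at an unadjusted p under 0.05 (beside the 28.6% of all genes), with differences from -0.34 to 0.10 and 95% intervals that together ran from -0.57 to 0.33. Cct6a read 16114.5 and 14445.5 in WT and 11648 and 12549 in Klf4CN (-0.34, adjusted p = 0.0593). Cct5 read 32135 and 30554 in WT and 25691 and 26220 in Klf4CN (-0.27, adjusted p = 0.0720). Both were lower in Klf4CN without overlap, whereas Cct3 read 10310 and 8184 in WT and 8575 and 9477 in Klf4CN, with overlap and a difference of -0.03. The 12 members whose signals are not all given array by array (Hspa1a, Hspa4, Hspa12a, Dnaja2, Dnaja3, Dnajb6, Tcp1, Cct2, Cct4, Cct7, Cct8 and Bag3) held 0 calls for genotype, with adult differences from -0.33 to 0.46.

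The 2 small heat shock genes had differences below 0 in the adult, neither of them called. Hspb1 read 104158 and 114749 in WT and 78218 and 76437 in Klf4CN at PN56, lower in Klf4CN without overlap, at -0.50 ± 0.16 (SE) and an adjusted p of 0.0569. Without the second E16.5 Klf4CN array, which shares in the estimate of spread, that p was 0.00943. Hspb8 read 382 and 364 in WT and 323 and 209 in Klf4CN (-0.49, adjusted p = 0.224).

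The genotype effect on Hspb1 differed between the ages. Its log2 difference was 0.69 at E16.5 and -0.50 at PN56, and the test of the difference between these gave -1.19 ± 0.20 (SE), with an adjusted p of 0.00963. It was the only member called in this test, 2.78% of 36, beside 4.75% of all genes (2.66% higher, 2.09% lower), so the members' share is not above the background; 8 members had an unadjusted p under 0.05, beside 20.3% of all genes. The second probe set of Hspb1 gave 1.21 at E16.5 and -0.25 at PN56, and the difference was called there too (adjusted p = 0.0205). The bright control cre fell beside it at PN56, from 78240 in WT to 52250 in Klf4CN, against 38340 and 33180 at E16.5, and the part of this in the Hspb1 value was not tested. Of the 6 pigment cell markers, 5 of them tested, Tyrp1 and Pmel were called in the same test of the difference between ages, at -3.19 and -2.68 (adjusted p = 0.0284 and 0.0340). The summed pigment cell signal was 596.8 to 2068.5 in WT and 1959.0 to 7307.9 in Klf4CN at E16.5, and 5675.2 to 7333.6 and 2498.0 to 2738.7 at PN56. It overlapped between the genotypes in the embryo and was lower in Klf4CN without overlap in the adult. Bfsp1 of the lens fibre list, Cdh1 and Aqp1 of the lens epithelium list and the macrophage markers Cd68 and Tyrobp were called in this test too, and the part of these lists in the Hspb1 value was not tested. Of all calls in this test 56% were higher as deposited and 83.2% after centring on the median, where Hsph1 and Hspe1 were also called (0.82 and 1.02, adjusted p = 0.0387 and 0.0297). As deposited, Hsph1, Hspe1, Hspd1, Ahsa1 and Hspa4l gave 0.65, 0.85, 0.42, 0.49 and 0.31 for the difference between ages, with adjusted p from 0.0514 to 0.358, so a genotype effect larger in the adult was not shown for them.

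Age gave far more calls than genotype. From E16.5 to PN56 in WT, 26 of 36 members changed (72.2%), 18 higher and 8 lower, beside 55.7% of all genes, 25.0% higher and 30.7% lower. In Klf4CN 27 changed (75%), 20 higher and 7 lower, beside 52.1%, 21.6% higher and 30.5% lower. The members' medians were 0.30 in WT and 0.33 in Klf4CN, beside -0.04 and -0.10 for all genes. These directions depended on the scaling, because centring each array on its median moved the median of all genes by -0.52 in WT and -0.34 in Klf4CN. After it 9 members were higher and 15 lower in WT, and 11 higher and 10 lower in Klf4CN, while quantile normalization gave 16 higher and 9 lower, and 16 higher and 7 lower. Higher calls were 44.9% of all calls in WT and 41.5% in Klf4CN as deposited, and 19.9% and 22.6% after centring. The 21 members called in both genotypes all moved in the same direction in both. The share of all genes that did so was not taken, so this is not a result about the members. The 2 age comparisons share no array, but they share the difference in preparation and the estimate of spread. Hspb1, Hspa1a, Hspa1b, Hspa8, Dnajb1, Dnajb2, Dnajb4, Cct5 and Stip1 rose by 0.97 or more in WT, beyond the shift of 0.52 that centring made. The bright control cre rose too, from a mean of 38340 to 78240 in WT and from 33180 to 52250 in Klf4CN. The part of this in these rises was not tested. Marker sums moved with age as well. In WT the lens fibre sum was 196483 to 227799 at E16.5 and 593509 to 663250 at PN56. The photoreceptor sum was 132.1 to 251.3 and then 4451 to 4806. The macrophage sum was 4469 to 6063 and then 1433 to 1530, and the endothelial sum 2884 to 4214 and then 283 to 453. The part of the cell make-up in the age values of the members was not tested. After quantile normalization the rise of Hspa8 in WT was 0.58.

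**Figure D4:**
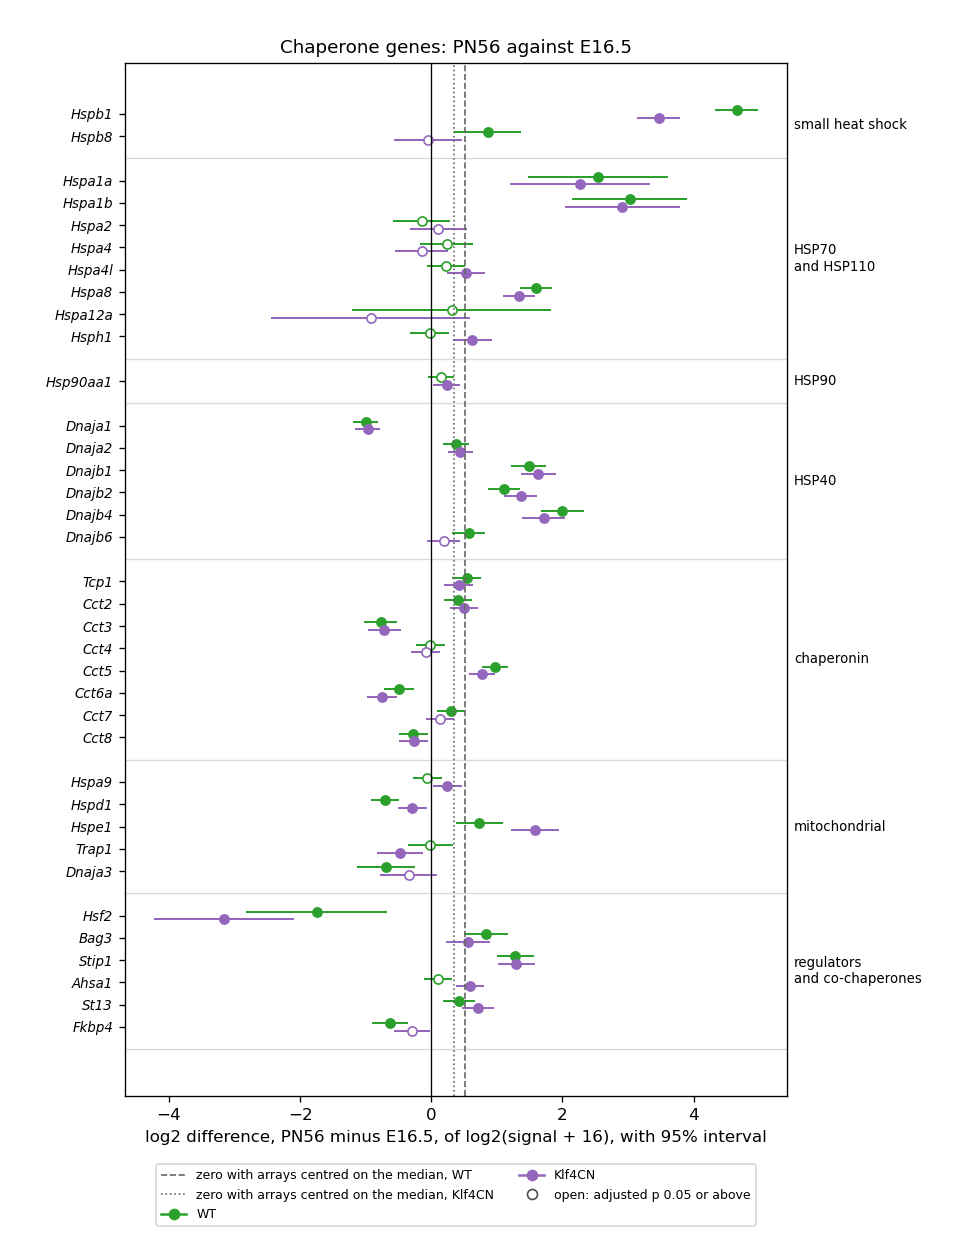
The log2 difference of PN56 from E16.5 for the 36 chaperone genes tested in WT (green) and Klf4CN (purple), with 95% intervals and filled points where the limma adjusted p was under 0.05. The dashed and dotted lines mark where zero would lie if each array were centred on its median (0.52 and 0.34), and Hspb1, at 4.65 in WT and 3.47 in Klf4CN, lies farthest to the right.

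The largest rise with age was that of Hspb1, from the 4049 to 4494 of the embryonic WT arrays to the 104158 and 114749 of the adult ones, a log2 change of 4.65 ± 0.14 (SE), 25.2-fold (adjusted p = 4.06e-10). In Klf4CN it rose by 3.47 (11.1-fold, adjusted p = 4.18e-09). Hspb8 rose in WT by 0.86 (adjusted p = 0.00714), and in Klf4CN its value was -0.05 with no call. The difference between these had an adjusted p of 0.138. The WT rise was 0.34 after centring, without a call, and the call was also lost with the mean of its probe sets. Its other probe sets gave 1.61 with a call and -0.36 without one in WT.

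Among the HSP70 and HSP110 genes the inducible pair and HSC70 rose with age in WT, and the other 5 did not pass the test. Hspa1b went from 116, 360 and 240 at E16.5 to 1711 and 2069 at PN56 in WT, and from 215, 538 and 285 to 2488 and 2566 in Klf4CN. Every adult array was above every embryonic one, and the rises were 3.02 and 2.91 (adjusted p = 4.00e-05 and 5.97e-05). Hspa8 went from 25612, 27664 and 32564 to the adult values given above in WT, a rise of 1.60 ± 0.11 (SE), 3.04-fold (adjusted p = 1.14e-07), and from 26491, 27574 and 28419 in Klf4CN, a rise of 1.34. Hspa2 read 291, 321 and 302 in WT and 323, 402 and 348 in Klf4CN at E16.5, and did not pass the test with age in either genotype. Hsph1 and Hspa4l rose with age in Klf4CN by 0.62 and 0.53 and gave -0.03 and 0.23 in WT without a call, and the tests of the difference between genotypes, given above as that between ages, did not pass. Both Klf4CN calls were lost after centring, at 0.28 and 0.19. The rise of Hspa4l in WT was called under 3 alternatives, and 1 of its other probe sets, brighter in the adult, gave 1.83 in WT (adjusted p = 7.25e-06). For Hspa4, the 2 lesser probe sets were lower with age in WT by the test, at -2.79 and -2.15, and the brightest gave 0.23.

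Of the 6 J proteins 5 rose and 1 fell with age in WT, and 4 rose and 1 fell in Klf4CN; after centring on the median 3 rose and 1 fell in each. Dnajb4 went from 970, 875 and 705 to 3164 and 3671 in WT, and from 874, 835 and 982.5 to 2967 and 2971 in Klf4CN. The rises of this inducible J protein were 2.00 and 1.71, with no overlap between ages (adjusted p = 2.57e-07 and 1.03e-06). Dnajb1 went from 8087, 7224 and 7506.5 in embryonic WT and 7803, 8813.5 and 10096 in embryonic Klf4CN to the adult values above, rising by 1.48 and 1.63. Dnajb2 went from 4651, 4403 and 4128 in WT and 4887, 4035 and 4792 in Klf4CN, rising by 1.10 and 1.36. Dnaja1 was the exception, falling from 16789, 15831 and 16691 to 8389 and 7992 in WT and from 18006.5, 16247 and 16839.5 to 8611 and 8726 in Klf4CN. Its change was -1.0 in WT and -0.97 in Klf4CN, with every adult array below every embryonic array. Its other 2 probe sets gave -0.18 and -0.20 in WT without calls (adjusted p = 0.136 and 0.169) and were called lower in Klf4CN, and the mean of its probe sets gave -0.46 in WT.

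The chaperonin subunits, which assemble into the same complex of stacked rings, parted ways with age. In WT 4 rose and 3 fell, and in Klf4CN 3 rose and 3 fell; after centring on the median these were 1 and 4 in each genotype, and after quantile normalization 1 and 3. Cct5 went from 16347, 15032 and 16768 in embryonic WT and 15403, 15475 and 14553 in embryonic Klf4CN to the adult values above, rising by 0.97 and 0.78. Cct3 went the other way, from 15941, 14714 and 16542 in WT and 15150, 14586 and 14727 in Klf4CN, with changes of -0.77 and -0.72. Cct6a, from 20699, 20181 and 23492 in WT and 21228, 21022 and 19216 in Klf4CN, had changes of -0.49 and -0.76. Neither direction overlapped between ages in these genes. Probe sets did not all side with the brightest. Of the 3 for Cct2, 1 was lower with age in WT (-0.49, limma adjusted p = 0.0248) where the brightest was higher (0.41). The second probe set of Cct6a gave 0.19 in WT and -0.005 in Klf4CN without calls. The mean of the Cct6a probe sets gave -0.15 in WT, also without a call. The fit to every probe set found called probe sets of the opposite direction for 7 members in WT.

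In the mitochondria the chamber and the lid went opposite ways with age by their brightest probe sets. Hspe1 rose by 0.73 in WT and 1.58 in Klf4CN (adjusted p = 0.00187 and 4.72e-06), whereas Hspd1 fell by 0.71 and 0.29 (adjusted p = 3.45e-05 and 0.0189). The WT rise of Hspe1 was 0.22 after centring, without a call, and the second probe set of Hspe1 gave -0.26 in WT. Trap1 read 1189, 949 and 1347 in WT and 1079, 1132 and 1100 in Klf4CN at E16.5. It fell with age in Klf4CN (-0.48, adjusted p = 0.0203), with -0.01 in WT. The test of the difference between these did not pass (-0.46, limma adjusted p = 0.258). The Klf4CN call was lost under 4 of 21 alternatives, among them quantile normalization (-0.36). Hspa9 read 3419, 3530 and 3915 in WT and 3610, 3618 and 3371.5 in Klf4CN at E16.5. With age it gave -0.06 in WT and 0.24 in Klf4CN (limma adjusted p = 0.0499), the latter -0.10 after centring. This Klf4CN call was kept under 4 of 21 alternatives. The probe sets of Hspa9 disagreed, since 1 was called lower with age in both genotypes (-0.52 in WT and -0.85 in Klf4CN). Among the others 2 were called higher in WT and 1 in Klf4CN.

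Among the co-chaperones Stip1 rose with age from 2681, 2359 and 3101.5 to 7147 and 6024 in WT, and from 2695, 2837 and 2634 to 6459 and 6928 in Klf4CN. These rises of 1.28 and 1.29 were without overlap (adjusted p = 2.79e-06 and 2.85e-06). St13 went from 8918.5, 9474 and 9348 in embryonic WT and 10341, 8615 and 10088 in embryonic Klf4CN to the adult values above, called higher at 0.42 and 0.71, the WT value turning to -0.09 after centring. Hsf2 was dim, all of its adult signals lying below the filter's 45.1. It went from 78.9, 202 and 92.0 to 44.2 and 9.1 in WT, and from 257, 255 and 190 to 17.0 and 7.4 in Klf4CN, with changes of -1.75 (adjusted p = 0.00859) and -3.16 (adjusted p = 0.000156). These sizes depended on the offset (-4.24 in Klf4CN with an offset of 1), and the second probe set of Hsf2 gave 0.87 in WT without a call. Fkbp4 went from 2276, 2112 and 2597 in embryonic WT and 2058, 2211 and 1953 in embryonic Klf4CN to the adult values above. It fell by 0.64 in WT, with -0.30 in Klf4CN just short of a call (limma adjusted p = 0.0513). The difference between these did not pass the test (0.34, adjusted p = 0.280). The WT call was lost with the mean of its probe sets (-0.21). Hsp90aa1 read 25474, 24537 and 27921 in WT and 25624, 23800.5 and 24873 in Klf4CN at E16.5. With age it gave 0.15 in WT without a call and 0.23 in Klf4CN (adjusted p = 0.0376). The Klf4CN value turned to -0.44 after quantile normalization, a call in the other direction (limma adjusted p = 0.000685). In WT Hsp90aa1 was called lower after quantile normalization (-0.32, adjusted p = 0.00464) and after centring (-0.37, adjusted p = 0.00963). Its probe sets disagreed, since another went from a mean of 7047 to 14530 in WT and was called at 1.05 there (adjusted p = 1.12e-05) and at 1.18 in Klf4CN (adjusted p = 4.80e-06), and the mean of its probe sets gave 0.73 in WT (adjusted p = 0.00206).

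Promoter elements can be set beside the calls as a description. Promoters were read for 31 of the 38 members, so not being named here does not show that a run is absent. Of the 5 members called at PN56, Hsph1, Hspe1 and Hspd1 hold the run of 3 units, the last pair through the shared stretch, so that these are 2 stretches of sequence rather than 3. The shared stretch holds overlapping runs of 3 units. The run of Hsph1 lies after its listed start sites, at bases 16 to 28 from one and 37 to 49 from the other. Dnajb6, a J protein that keeps polyglutamine proteins from aggregating, holds a run of 3 units too. Its brightest probe set gave -0.25 for genotype at PN56, with a limma adjusted p of 0.198. Its other 3 probe sets that passed the filter lay above 0 without calls, at 0.42, 0.26 and 0.89, so its direction is uncertain. Runs of 2 units only stood in 11 members. Of these Dnajb4, Hspb1, Hspb8, Hspa1a, Hspa1b, Bag3, Cct2 and Cct5 were called higher with age in WT as deposited. The others, Dnaja1, Cct6a and Fkbp4, were called lower. Among all 36 members tested, 18 were higher and 8 lower.

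Genes that work with these chaperones were read from 6 further lists of 51 genes, 47 of them tested. At E16.5 0 of 47 passed the limma test, beside 0.00744% of all genes. At PN56 4 were higher and 5 lower in Klf4CN, beside 13.0% of all genes called. With age 16 were higher and 15 lower in WT and 17 higher and 14 lower in Klf4CN, beside 55.7% and 52.1% of all genes called. In the list of prefoldin and chaperonin partners, 1 of 7 was higher and 1 lower in adult Klf4CN. Pfdn2, a subunit of the prefoldin complex that delivers actin and tubulin to the chaperonin, rose by 1.07 (adjusted p = 0.00244), and Vbp1, another prefoldin subunit, fell by 0.47 (adjusted p = 0.00909), while Pfdn1 and Pfdn5 gave 0.46 and 0.41 (adjusted p = 0.0586 and 0.0656).

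Of 13 further co-chaperones, Stub1, the ubiquitin ligase CHIP, was higher (0.35, adjusted p = 0.0276) and Bag1, an HSP70 nucleotide exchange factor, lower (-0.45, adjusted p = 0.0126), with Chordc1 at -0.28 and Cdc37, which brings kinases to HSP90, at 0.24 without calls. Of 12 other J proteins, Dnajb9 of the endoplasmic reticulum was higher (0.65, adjusted p = 0.00556) and Dnajc8 lower (-0.53, adjusted p = 0.00930), with Dnajb5 at -0.79 and Dnajc3 at 0.31 uncalled. None of 9 genes of mitochondrial import and quality control passed the test, the smallest p-values being those of Clpx (0.42), Grpel2 (-0.36), Htra2 (0.44) and Clpb (-0.44). In the rest of the small heat shock family, the alpha crystallins Cryaa and Cryab were lower in adult Klf4CN (-0.60 and -0.45, adjusted p = 0.0120 and 0.0254), Hspb3 was higher (0.93, adjusted p = 0.0262), and Hspb6 gave 0.36 without a call. The falls of the alpha crystallins moved with the lens fibre marker sum given above, a list that holds Cryaa. The control cre was lower in adult Klf4CN too, and the part of this in their values was not tested. Hsf4, the heat shock factor known for its role in the lens and in cataract, gave -0.05 for genotype at PN56 and fell with age by 1.14 in WT and 0.82 in Klf4CN.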

How the data were processed

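The authors deposited intensities on a linear scale, 1 value for each probe set on each array. They were made with GCOS 1.4, per the submitters' processing notes; any further step is not given in the sources used here. RNA was extracted with an RNeasy kit and labelled with a 3′ IVT Express kit, per the labels. Every array had a mean of 500 once 2% of its signals were trimmed from either end. The 45101 probe sets comprised 64 controls, 34945 with a single gene symbol, 932 with several and 9160 with none. RefSeq (assembly GRCm38.p6) held the gene number of 34741, and 0 symbols changed.

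Signals were analysed as log2(signal + 16) without further scaling, so differences on this scale understate the change of dim genes. A gene was represented by its brightest single-symbol probe set (mean log2 over the 10 arrays) and was tested if that mean reached the 40th percentile over all probe sets, a signal of 45.1. One model of 4 group means was fitted to all arrays in limma 3.58.1 (R 4.3.3) with an intensity trend and was tested on simulated data. Tests were two-sided, and p-values were adjusted over 13440 genes by Benjamini-Hochberg, with calls under 0.05. The number of arrays limits the precision. The members, their classes, the other lists and the rules were chosen with earlier results of these data known.

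Signals were given for 24 members: those called in a genotype comparison, the 2 others per class of smallest p at PN56, and per class the largest called rise and fall with age in WT. Up to 4 genes of each other list were named by their p at PN56. The replicate numbers were not used as pairs: deviations of same-numbered arrays correlated at 0.269, 0.242 and 0.0513 at E16.5 and 0.0426 at PN56. The alternatives changed the scaling (quantile normalization, or centring on the array median), the offset (1 or 64), the filter (none, or the 60th percentile), the probe sets (their mean, or each by itself) and the model (no intensity trend, only the groups compared, or the replicate block). Each array was also left out in turn, and the brightest probe set was chosen by linear signal, an alternative added after seeing the data.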

Additional observations from a re-analysis of the deposited data

Results flagged for a closer look

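The effect of genotype on Hspb1 at PN56 minus that at E16.5 was -1.19 on the log2 scale (limma adjusted p = 0.00963), with Klf4CN above WT on all E16.5 arrays and below WT on all PN56 arrays. Of the pigment cell markers, Tyrp1 and Pmel were called in the same test (-3.19 and -2.68), and their part in the Hspb1 value was not tested. The call was kept under 19 of 20 alternatives, which gave -1.37 to -0.85, and lost without the intensity trend (adjusted p = 0.0643).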

How the results depend on the processing

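At E16.5 the count of members called was 0 under 12 alternatives and 0 to 1 when single arrays were left out, the 1 being Hspb1. At PN56 it went from 5 to 3 without the intensity trend, 3 with only the groups compared and 9 when a member counted if any probe set was called, and from 2 to 6 when single arrays were left out, with 2 both without the first WT array and without the second Klf4CN array. Of those 5 calls 1, Hsph1, was kept in every alternative. The count by any probe set included Hspa4, Dnaja1 and Dnaja2, whose called probe sets were lower in Klf4CN. For the difference between ages the count went from 1 to 3 (arrays centred on their medians), 2 (offset 64), 3 (filter at the 60th percentile), 2 (averaged probe sets), 0 (without the trend) and 4 (every probe set), and 1 to 4 with single arrays left out; the groups compared could not be fitted by themselves here. With the replicate block, that is with pairing by number, it was 2, and 0, 5, 25 and 25 for E16.5, PN56 and age in WT and Klf4CN. Age counts stayed within 19 to 31 in WT and 21 to 31 in Klf4CN, and within 22 to 27 and 22 to 28 with arrays left out; 12 of 26 and 14 of 27 calls were kept in every alternative. Age values in WT that turned sign were Dnaja2 (-0.14), Cct2 (-0.11), Cct7 (-0.22) and St13 (-0.093) after centring, and Dnaja3 (0.42), Cct8 (0.27) and St13 (-0.45) with the mean of probe sets. In Klf4CN they were Hspa9 (-0.10) and Hsp90aa1 (-0.11) after centring, and Hsp90aa1 (-0.44) and Tcp1 (-0.10) after quantile normalization. The causes were not tested. With a single adult array left in a group, it was assumed to vary like the others.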
